A study of Mus musculus with 6 samples.

Results

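Genes of macrophage fusion and of the osteoclast, the bone-resorbing cell that forms when macrophage precursors fuse, were followed in BV2 cells, an immortalised mouse microglial line. The members were listed by name (Ocstamp, Dcstamp, Nfatc1, Acp5, Tnfrsf11a, Ctsk and Oscar) and were selected in part on the measured Tfam-KO to WT fold change of Ocstamp in these same libraries, so Ocstamp is described here with no test. Of the 7 listed, 6 were among the 17872 genes of the deposited table and all 6 passed the filter on low counts, while Acp5, which encodes the tartrate-resistant acid phosphatase, was not analysed here. The libraries were 3 labelled Tfam-KO, from BV2 cells in which CRISPR-Cas9 had been directed at Tfam, the gene of the mitochondrial DNA packaging and transcription factor, and 3 of wild-type BV2 cells (WT). The labels describe continued culture with puromycin at 2 μg/mL after the editing, under a protocol that all 6 samples carry; they do not say what the WT cells received, whether the edited cells were 1 clone or a pool, or whether replicates were separate cultures, and a p-value here may reflect technical spread alone. The labels give the treatment of all 6 samples as none, and they name no osteoclast-inducing ligand.

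Osteoclasts form when the macrophage growth factor CSF1 acts on its receptor and the ligand RANKL acts on RANK, the receptor encoded by Tnfrsf11a. RANK signals through TRAF6, NF-kB and AP-1, receptors such as OSCAR and TREM2 add a calcium signal through adaptor proteins, and both arms meet at the transcription factor NFATc1. NFATc1 in turn drives the membrane proteins DC-STAMP and OC-STAMP, which cell fusion needs, and the resorption enzymes cathepsin K and tartrate-resistant acid phosphatase. The same fusion proteins act when macrophages form multinucleated giant cells, and microglia belong to the same myeloid lineage.

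The fusion pair is encoded on separate chromosomes, Ocstamp on chromosome 2 and Dcstamp on chromosome 15. The first 90 bases of each coding sequence, from the transcripts of GENCODE release M21, are shown because these genes encode the pair of fusion proteins described below; capitals mark the start codon.
Ocstamp: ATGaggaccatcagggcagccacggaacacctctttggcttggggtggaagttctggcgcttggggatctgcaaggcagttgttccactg
Dcstamp: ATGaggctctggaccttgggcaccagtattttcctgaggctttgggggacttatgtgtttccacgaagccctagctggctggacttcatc
The annotated coding sequences were 1494 and 1410 bases long for Ocstamp and Dcstamp. No stretch of at least 100 bases at 95% identity or more was shared between their transcripts, so reads of one are unlikely to be counted for the other. Ocstamp shared such a stretch, at most 191 of its 3657 exonic bases, with 11 other genes, and the other 5 members shared none. No member had an exon overlapping another annotated gene on either strand, which bears on these libraries because the kit does not mark strand.

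Promoter sequences of 3 members are shown from the RefSeq table (build GRCm38.p6), as the 250 bases before each start site. These 3 genes were all lower in the libraries labelled Tfam-KO. No window is given for the other members, among them Nfatc1, which was not called. The 3 windows therefore do not compare called with uncalled members. Tnfrsf11a lies at chr1:105780473-105780722 on the plus strand, Ctsk at chr3:95498960-95499209 on the plus strand and Oscar at chr7:3616158-3616407 on the minus strand. Capitals mark matches, on either strand, to the letters of osteoclast transcription factor motifs: GGAAA for NFAT, TGANTCA for AP-1, GAGGAAG for PU.1, and CATGTG or CACGTG for MITF.
Tnfrsf11a: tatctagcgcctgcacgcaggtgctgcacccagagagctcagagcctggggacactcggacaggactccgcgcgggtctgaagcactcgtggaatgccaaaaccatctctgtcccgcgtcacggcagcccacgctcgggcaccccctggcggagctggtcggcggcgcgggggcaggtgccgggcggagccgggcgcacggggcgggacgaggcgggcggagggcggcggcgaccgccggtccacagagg
Ctsk: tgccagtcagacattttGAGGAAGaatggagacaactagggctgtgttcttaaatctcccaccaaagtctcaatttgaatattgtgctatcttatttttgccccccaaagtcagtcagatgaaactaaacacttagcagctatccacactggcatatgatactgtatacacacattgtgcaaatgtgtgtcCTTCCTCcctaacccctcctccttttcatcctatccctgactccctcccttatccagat
Oscar: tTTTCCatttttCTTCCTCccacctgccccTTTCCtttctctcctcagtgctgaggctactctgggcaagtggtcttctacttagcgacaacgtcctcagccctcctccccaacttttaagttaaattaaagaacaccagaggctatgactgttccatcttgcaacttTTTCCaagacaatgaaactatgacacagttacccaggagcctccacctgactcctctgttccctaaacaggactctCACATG
The Oscar window held 3 NFAT matches, 1 PU.1 match and 1 CATGTG match, the Ctsk window held 2 PU.1 matches, and the Tnfrsf11a window held none of these letters. Among all 32851 promoter windows of that length, 55.6% held the NFAT letters, 10.6% the PU.1 letters, 6.75% the AP-1 letters, 12.3% CATGTG and 6.02% CACGTG. The Tnfrsf11a window was 73.6% G and C, against 43.2% for Ctsk, 47.2% for Oscar and a median of 52.4% over all windows. A match describes the letters and not a bound site. For Ctsk, the bases just after the stated start were not found as 1 stretch in a GENCODE M21 transcript, unlike those of Tnfrsf11a and Oscar. The start site, and so the window, is less certain for Ctsk.

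Total counts ran from 13850691 to 20889786 in the libraries labelled Tfam-KO and from 14642397 to 28418133 in WT libraries. Levels are TMM-scaled counts per 1e+06 counts (CPM), and fold changes are log2, Tfam-KO over WT, from edgeR's quasi-likelihood test over 13403 genes, called at an adjusted p below 0.05. Tfam itself had 868, 743 and 619 counts in the libraries labelled Tfam-KO, against 1098, 591 and 524 in WT libraries, which is 42.2 ± 1.15 CPM in libraries labelled Tfam-KO and 38.2 ± 1.01 CPM in WT (SD, n = 3 each; log2 fold change 0.14, adjusted p = 0.193 in edgeR). The Tfam mRNA level therefore does not check the knockout label, and each direction below is that of the libraries labelled Tfam-KO. Of 11 tested macrophage and microglia markers, out of 14 listed, 8 were called lower and 1, Adgre1, higher. Over all 13403 tested genes, 22.9% were called lower and 21.3% higher. The 12 markers with counts summed to 2979 to 3353 CPM in the libraries labelled Tfam-KO and to 4103 to 4495 CPM in WT libraries. The most abundant was Cd68 (1002 and 1263 CPM). The part of this marker shift in the results below was not tested, and in bulk RNA fewer cells of a type and less RNA per cell cannot be told apart. Some markers of other cell types were as abundant as members: the osteoblast genes Alpl (50.9 CPM in libraries labelled Tfam-KO, 51.2 CPM in WT) and Runx2 (25.2 and 20.98 CPM), neither of them called, and the dendritic cell gene Batf3 (18.6 and 25.3 CPM). In all, 4 osteoblast and stromal markers summed to 75.8 to 77.1 against 70.4 to 76.6 CPM, 4 dendritic cell markers, led by Batf3, to 27.0 to 30.6 against 32.8 to 37.0 CPM, 2 neutrophil markers, led by S100a8, to 1.46 to 1.53 against 4.01 to 7.35 CPM, and 3 astrocyte and neuron markers, led by Slc1a2, to 1.55 to 2.93 against 0.707 to 2.13 CPM.

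Ocstamp, which encodes OC-STAMP, was the member chosen for its fall. It had 37, 44 and 41 counts in the libraries labelled Tfam-KO, against 1089, 653 and 709 in WT libraries. On the CPM scale these were 1.75, 2.53 and 2.86 in the libraries labelled Tfam-KO, against 38.7, 42.5 and 50.1 in WT libraries. All 3 libraries labelled Tfam-KO lay far below all 3 WT libraries, and Ocstamp stayed detected in each of them. The fitted level was 18.7-fold higher in WT (log2 fold change -4.23 ± 0.163 SE), the 14th lowest log2 fold change of the 13403 tested genes.

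Dcstamp encodes DC-STAMP, the other fusion protein of the pair. It had 645, 669 and 477 counts, or 30.4, 38.4 and 33.2 CPM, in the libraries labelled Tfam-KO. In WT libraries it had 1617, 1041 and 946 counts, or 57.4, 67.8 and 66.9 CPM. The groups did not overlap, but the distance was much smaller than for Ocstamp: Dcstamp fell by 0.91 ± 0.102 (log2, SE; adjusted p = 1.77e-06, edgeR), to 34.0 ± 4.04 CPM in libraries labelled Tfam-KO, against 64.0 ± 5.73 CPM in WT (SD, n = 3 each). The related genes Dcst1 and Dcst2, whose proteins carry a DC-STAMP-like domain, were at 1.504 ± 0.957 and 3.54 ± 1.29 CPM in libraries labelled Tfam-KO, against 1.03 ± 0.405 and 2.76 ± 0.830 CPM in WT, and neither was called (adjusted p = 0.302 and 0.449, edgeR).

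**Figure D1:**
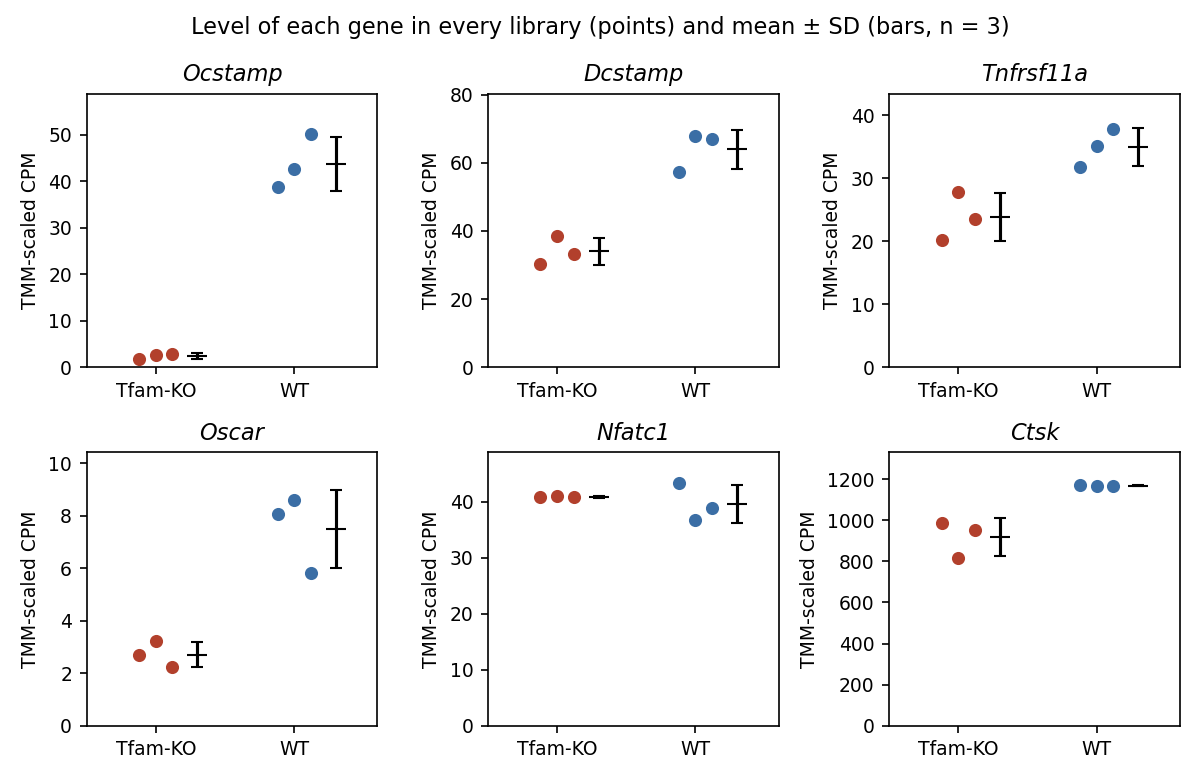
TMM-scaled CPM (vertical axes, from 0) of the 6 measured genes in the 3 libraries labelled Tfam-KO (red) and the 3 WT libraries (blue), with mean ± SD beside each group. Ocstamp lies at 1.75 to 2.86 CPM in libraries labelled Tfam-KO and 38.7 to 50.1 CPM in WT; only the Nfatc1 groups overlap.

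Both receptors were also lower. Oscar, an immunoglobulin-like receptor that co-stimulates osteoclast formation through the Fc receptor gamma chain, was the least abundant member in WT. Its counts were 57, 56 and 32 in libraries labelled Tfam-KO and 227, 132 and 82 in WT libraries. Its levels were 2.69, 3.21 and 2.23 CPM in libraries labelled Tfam-KO, against 8.06, 8.59 and 5.80 CPM in WT libraries. WT replicate 3 lay below WT replicates 1 and 2 but above all libraries labelled Tfam-KO, and Oscar fell by 1.46 ± 0.220 on the log2 scale (SE; adjusted p = 3.99e-05, edgeR).

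Tnfrsf11a, which encodes RANK, had 20.2, 27.8 and 23.5 CPM in libraries labelled Tfam-KO, against 31.8, 35.03 and 37.8 CPM in WT libraries, from 337 to 485 counts and 535 to 896 counts. The highest library labelled Tfam-KO stood close below the lowest WT library. Tnfrsf11a fell by 0.55 ± 0.118 on the log2 scale (SE; adjusted p = 0.00117, edgeR).

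Nfatc1, the transcription factor on which both receptor arms converge, had 40.8, 41.0 and 40.8 CPM in libraries labelled Tfam-KO, against 43.3, 36.7 and 38.8 CPM in WT libraries. The 3 libraries labelled Tfam-KO lay inside the range of the WT libraries. The log2 fold change was 0.04 with a 95% interval of -0.15 to 0.24 (adjusted p = 0.739, edgeR). That interval leaves room for a change within it either way. It does not reach the estimates for Ctsk, Tnfrsf11a, Dcstamp or Oscar. The interval for Ctsk, -0.53 to -0.16, ends close to it.

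Ctsk, the gene of the collagen-degrading protease cathepsin K, was by far the most abundant member. It had 988, 816 and 955 CPM in libraries labelled Tfam-KO, against 1172, 1167 and 1168 CPM in WT libraries. The WT libraries were nearly equal, with an SD of 2.66 CPM, whereas the SD in libraries labelled Tfam-KO was 91.5 CPM. Ctsk fell by 0.35 ± 0.0875 on the log2 scale (SE; adjusted p = 0.00388, edgeR), the smallest change among the members called.

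Of the 5 members other than Ocstamp, 4 were called lower and none higher, where 44.2% of all 13403 tested genes were called and 22.9% of all tested genes were called lower. A fitted fall of at least 2-fold was called for 5.54% of all genes and, of these 5, for Oscar. The groups did not overlap for the same 4 genes, as for 52.9% of all tested genes. The median log2 fold change was -0.73 over the 6, Ocstamp included, and 0.0012 over all tested genes. As the genes were listed with earlier results of these data known, nothing is read from the count.

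**Figure D2:**
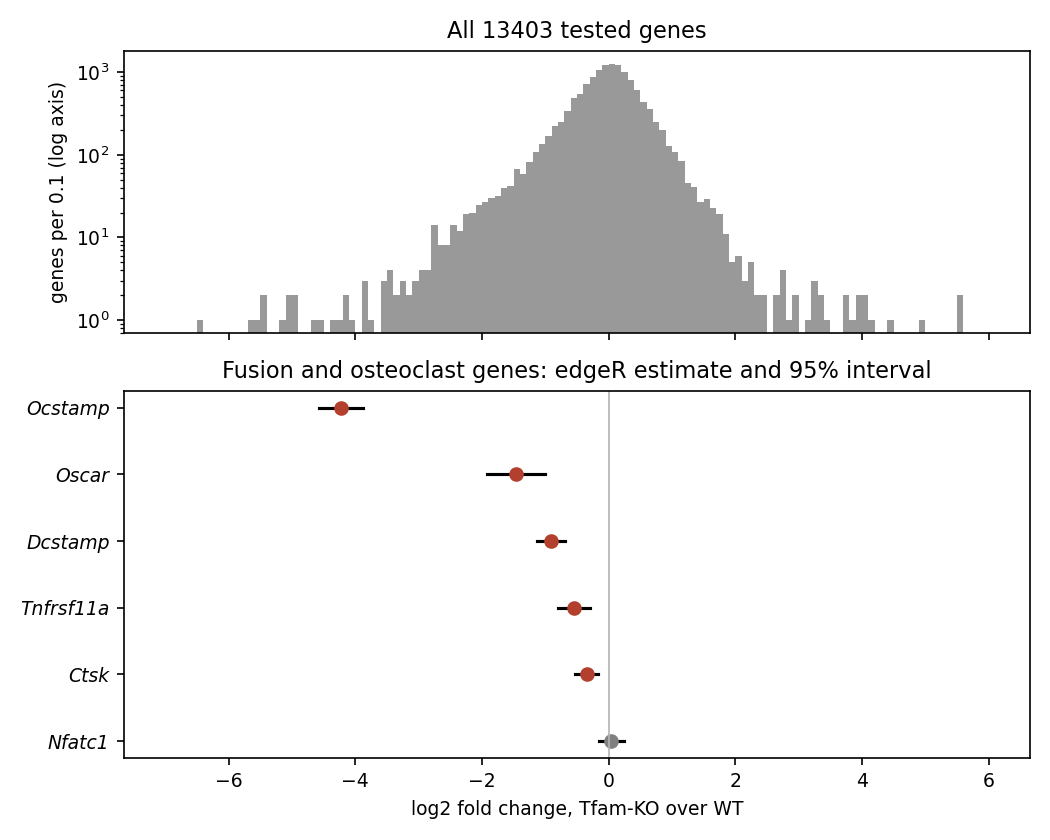
Upper panel: number of tested genes (log axis) per 0.1 of log2 fold change, Tfam-KO over WT, for all 13403 genes. Lower panel: edgeR estimate (point, red where called lower, grey where not called) and 95% interval (line) for each of the 6 genes, from -4.23 for Ocstamp to 0.04 for Nfatc1. Ocstamp was chosen for its fall, so its colour and interval are a description and not a test.

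The order of the members by level per kilobase of exon differed between the groups. In WT libraries the order was Ctsk (773 ± 1.75 CPM per kb), Dcstamp (24.03 ± 2.15), Ocstamp (11.97 ± 1.59), Tnfrsf11a (5.83 ± 0.501), Nfatc1 (5.30 ± 0.454) and Oscar (4.05 ± 0.804; SD, n = 3). Of these neighbours only Tnfrsf11a and Nfatc1 overlapped. In libraries labelled Tfam-KO the order was Ctsk (608 ± 60.5 CPM per kb), Dcstamp (12.8 ± 1.52), Nfatc1 (5.47 ± 0.0172), Tnfrsf11a (3.98 ± 0.641), Oscar (1.47 ± 0.266) and Ocstamp (0.650 ± 0.156; SD, n = 3), with no overlap between neighbours. Ocstamp was thus above Tnfrsf11a, Nfatc1 and Oscar in WT and last in libraries labelled Tfam-KO. That move follows from the choice of Ocstamp for its fall and is a description. Among the other members, only Tnfrsf11a and Nfatc1 changed places, and their levels overlapped in WT. Exon lengths came from GENCODE M21, and a different transcript in use would shift these values.

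Ratios of raw counts within a library do not depend on how libraries are scaled. Ocstamp counts were 5.74%, 6.58% and 8.60% of Dcstamp counts in libraries labelled Tfam-KO, against 67.4%, 62.7% and 75.0% in WT libraries. The ratio with Ocstamp follows from the choice of Ocstamp for its fall and is a description. Dcstamp counts were 3.08%, 4.71% and 3.48% of Ctsk counts in libraries labelled Tfam-KO, against 4.90%, 5.81% and 5.72% in WT libraries, which left the groups apart by a narrow margin. Oscar counts were 13.3%, 11.6% and 9.50% of Tnfrsf11a counts in libraries labelled Tfam-KO, against 25.3%, 24.5% and 15.3% in WT libraries. Tnfrsf11a counts were 49.5%, 67.8% and 57.5% of Nfatc1 counts in libraries labelled Tfam-KO, against 73.5%, 95.6% and 97.5% in WT libraries. In all 4 ratios the groups did not overlap, where 52.9% of single tested genes also did not overlap. The share over gene pairs was not computed, and the 4 pairs followed no stated rule, so nothing is read from that count. With 3 libraries a group an exact two-sided permutation test could not go below p = 0.1, so none is given.

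**Figure D3:**
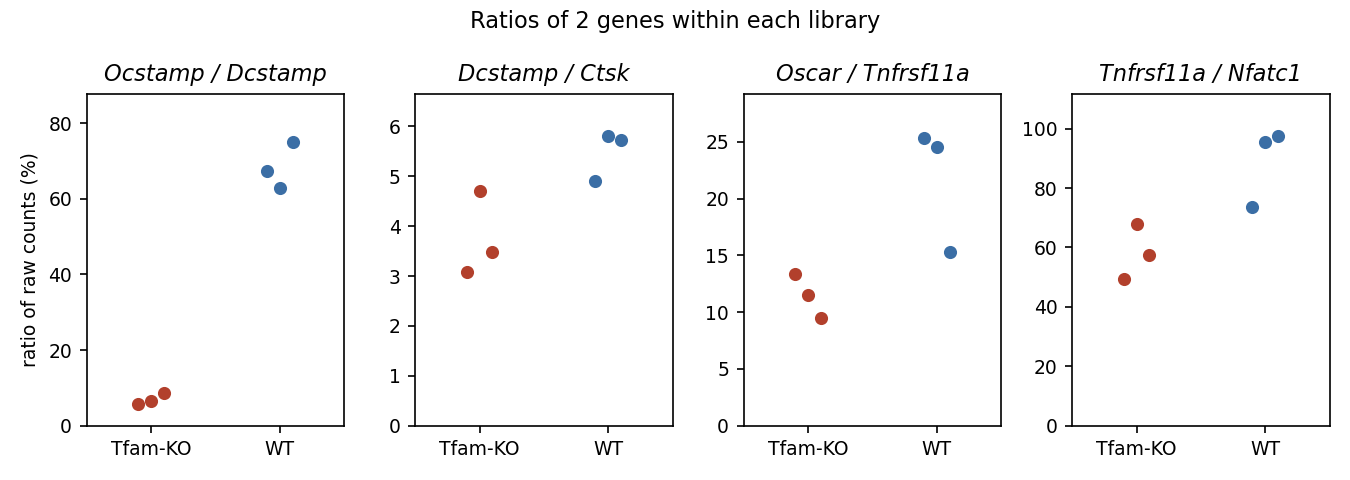
Raw count of one gene as a percentage of the raw count of another in the same library (vertical axes, from 0), for 4 pairs, in the 3 libraries labelled Tfam-KO (red) and the 3 WT libraries (blue). The Ocstamp to Dcstamp ratio is 5.74% to 8.60% in libraries labelled Tfam-KO and 62.7% to 75.0% in WT.

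Over the 6 libraries, the genes whose log2 CPM followed Ocstamp most closely among 9453 genes averaging at least 5 CPM were the formin Diaph1 (Pearson r = 0.9997), the lysosomal mannosidase gene Man2b1 (0.9991), the integrin Itgax (0.9987), Tmem214 (0.9985) and the histone demethylase gene Phf8 (0.9984). Of these, Itgax was at 127 CPM in libraries labelled Tfam-KO and 351 CPM in WT. Those likest to Dcstamp were Kbtbd11, Ewsr1 and Ica1, to Tnfrsf11a Rbm5, R3hdm1 and Usp48, to Ctsk Dhrs7, Tmem243 and Psap, and to Oscar Galnt10, Orc3 and Fgd4, with r between 0.9945 and 0.9985. The 6 points fall into 2 groups and share their libraries, so many genes lower in the same group score high. Of the 9453 genes, 974 had r above 0.95 with Ocstamp, 680 with Dcstamp, 338 with Oscar, 252 with Ctsk and 177 with Tnfrsf11a.

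The wider pathway was read from 7 role lists of 122 genes, none of them members, of which 105 could be tested. Of these, 38 were lower, 26 higher and 41 not called, with a median log2 fold change of -0.09. With libraries scaled by their totals alone the split was 32 lower and 35 higher. Under that scaling the median log2 fold change over all genes was 0.10 higher. In the main fit 61.0% were called, against 44.2% of all tested genes. By list the share ran from 47.6% for cell fusion to 83.3% for the negative regulators. RANK signalling had 53.85%, bone resorption 57.1% and the transcription factors 58.8%. The share was 75% for ligands and receptors and 81.8% for co-stimulatory receptor signalling. The lists were chosen with earlier results of these data known, so nothing is read from these shares.

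Among 21 other genes of macrophage fusion, 8 were lower and 2 higher, with a median of -0.13. The share called, 47.6%, was close to the 44.2% of all tested genes. Of the lower calls, that of P2rx7 held in no alternative except median-ratio factors (adjusted p up to 0.293). The Stat6 call was lost in several alternatives (up to 0.2998), and the Cd200r1 call was lost without WT replicate 2 (0.0652). The tetraspanins Cd81 (55.4 ± 5.36 CPM in libraries labelled Tfam-KO, 128 ± 15.4 CPM in WT) and Cd9 (217 ± 15.1 and 443 ± 43.9 CPM) fell by 1.20 and 1.03 on the log2 scale. The proton pump subunit gene Atp6v0d2, which osteoclast fusion needs in mice, fell by 1.07, to 181 ± 3.21 CPM in libraries labelled Tfam-KO, against 380 ± 30.1 CPM in WT, and the metalloprotease Adam8 fell by 1.03 (all 4 with adjusted p of 5.84e-08 or below, edgeR). The 2 higher genes were the fatty acid receptor Cd36 (0.43) and the GTPase Rac2 (0.22, adjusted p = 0.0277), whose call was lost at adjusted p up to 0.0883 without WT replicate 1 or 3 or Tfam-KO replicate 1 or 3 and with a replicate block. The hyaluronan receptor Cd44, at 298 ± 2.06 CPM in libraries labelled Tfam-KO and 269 ± 15.4 CPM in WT, and Cd47, at 121 ± 7.89 and 123 ± 10.1 CPM, were not called.

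Of 4 ligands and receptors tested, 3 were lower. These were the CSF1 receptor Csf1r (log2 fold change -1.46), its ligands Csf1 (-0.55) and Il34 (3.81 ± 0.732 CPM in libraries labelled Tfam-KO, 6.81 ± 0.119 CPM in WT). The RANKL gene Tnfsf11 and the decoy receptor gene Tnfrsf11b were not analysed here. Among 11 genes of co-stimulatory receptor signalling, 6 were lower and 3 higher, with a median of -0.36. The kinase Tec fell most (67.0 ± 5.78 CPM in libraries labelled Tfam-KO, 158 ± 5.39 CPM in WT; adjusted p = 1.62e-09, edgeR), followed by Tyrobp (-0.83), Trem2 (-0.83) and Fcer1g (-0.68), the gamma chain that pairs with OSCAR. The 3 higher genes were the kinase Syk (0.38), the adaptor Blnk (0.30) and Gab2 (0.24), and the Gab2 call was lost at adjusted p up to 0.202 without WT replicate 2 or 3 or Tfam-KO replicate 2 or 3 and with a replicate block.

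Of 26 RANK signalling genes, 10 were higher and 4 lower, with a median of 0.10. The higher calls of Chuk and Ppp3r1 were each lost in several alternatives (adjusted p up to 0.0843 and 0.199). Among the TRAF adaptor genes of the list, Traf2 and Traf3 were called higher (0.745 and 0.441). Traf6 fell by 1.62 on the log2 scale (adjusted p = 9.06e-09, edgeR). It was at 14.1 ± 2.48 CPM in libraries labelled Tfam-KO, against 43.5 ± 1.66 CPM in WT. The kinases Mapk14 (-0.49) and Mapk3 (-0.47) and the calcineurin subunit Ppp3ca (-0.23) were the other lower genes, and the Ppp3ca call was lost at adjusted p up to 0.173 with library totals, with limma on the deposited log2 table and without WT replicate 1. The scaffold Sqstm1 rose by 1.78 (2098 ± 35.03 CPM in libraries labelled Tfam-KO, 610 ± 23.0 CPM in WT). The NF-kB subunit genes Nfkb1, Relb and Nfkb2 rose by 1.28, 1.05 and 0.97. Genes on the opposite strand overlap 18.1% of the exonic bases of Nfkb2. Rela, the other NF-kB subunit gene of the list, was not called (0.10, adjusted p = 0.294, edgeR).

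Of 17 transcription factors that promote osteoclast formation, 7 were lower and 3 higher, with a median of -0.17. The lower call of Fosl1 was lost in several alternatives (adjusted p up to 0.1925) and that of Jund without WT replicate 3 (0.0739). Jun (-1.20), Nfatc2 (-0.64) and Mitf (41.4 ± 2.52 CPM in libraries labelled Tfam-KO, 62.2 ± 2.48 CPM in WT; -0.59) had the largest falls. Myc rose by 1.73, to 16.6 ± 1.69 CPM in libraries labelled Tfam-KO, against 5.00 ± 0.206 CPM in WT, and Fosl2 and Nfatc3 rose by 0.39 and 0.33. Fos, the AP-1 subunit that osteoclasts require in mice, was at 287 ± 148 CPM in libraries labelled Tfam-KO and 354 ± 96.5 CPM in WT, and was not called (adjusted p = 0.327, edgeR).

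Of 12 negative regulators tested, 5 were higher and 5 lower. Id3 rose by 2.35, the NF-kB brake Tnfaip3 by 1.05 (97.6 ± 5.65 CPM in libraries labelled Tfam-KO, 47.1 ± 0.839 CPM in WT), Bcl6 by 0.83, Rbpj by 0.39 and Socs3 by 0.38. Among the lower genes, Id2 fell by 1.07 (50.1 ± 10.97 CPM in libraries labelled Tfam-KO, 105 ± 14.1 CPM in WT), the phosphatases Inpp5d and Ptpn6 by 0.60 and 0.40, and Def6 by 0.29. The call was lost for Socs3 without WT replicate 1 or 2 or Tfam-KO replicate 3 (adjusted p up to 0.141) and for Def6 with library totals or limma on the deposited log2 table (up to 0.0605). Irf8 was not analysed here.

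Of 14 bone resorption genes, 5 were lower and 3 higher, with a median of -0.02. Plekhm1, a lysosomal trafficking adaptor, fell by 0.63 (110 ± 5.46 CPM in libraries labelled Tfam-KO, 171 ± 8.22 CPM in WT), the integrin Itgav by 0.33 and the anion exchanger Slc4a2 by 0.32, while Syt7 (0.42), the proton pump subunit gene Tcirg1 (0.29) and Snx10 (0.28) rose. The remaining 2, Itgb3 (0.441 ± 0.0573 CPM in libraries labelled Tfam-KO, 1.11 ± 0.208 CPM in WT) and Ckb (0.340 ± 0.150 and 0.839 ± 0.0538 CPM), lay near the limit of detection and are named after their values were seen. The Itgb3 call was lost with DESeq2 and without WT replicate 2 or 3 or any 1 library labelled Tfam-KO (adjusted p up to 0.0954). The Ckb call was lost with 4 other settings and without any 1 library except Tfam-KO replicate 3 (up to 0.150). The Slc4a2 call was lost with library totals, with limma on the deposited log2 table and without WT replicate 1 or 3 or Tfam-KO replicate 3 (up to 0.107). The matrix protease Mmp9 was at 4.34 ± 0.283 CPM in libraries labelled Tfam-KO and 4.36 ± 0.856 CPM in WT.

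**Figure D4:**
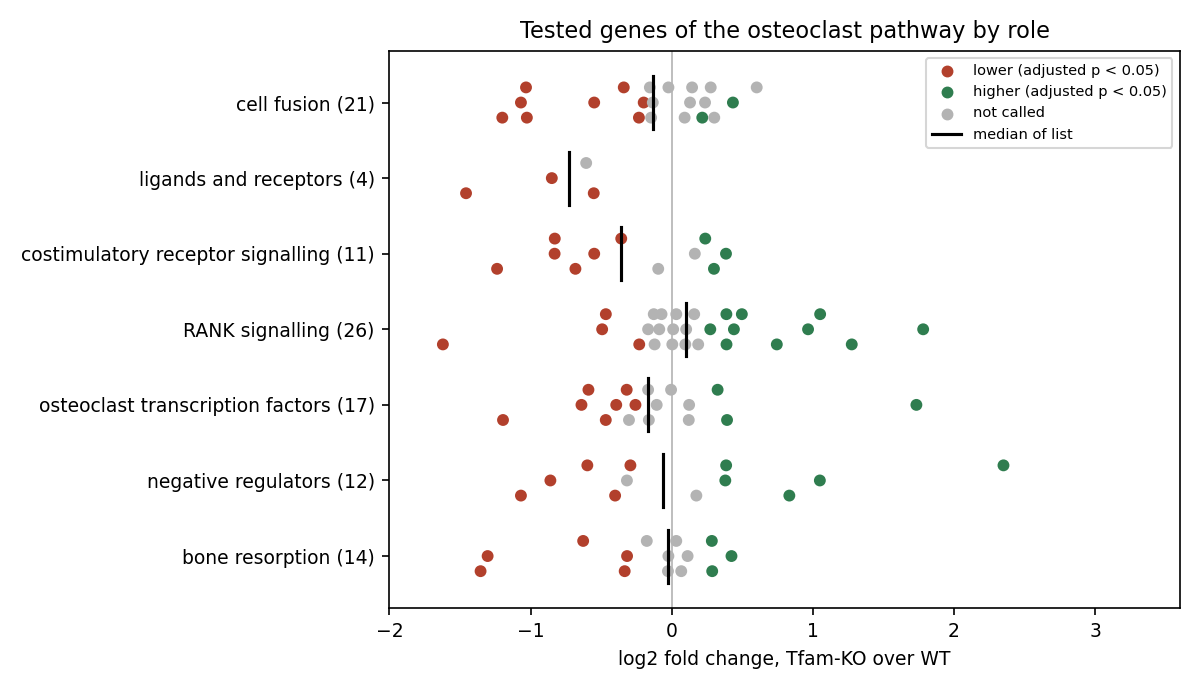
Log2 fold change, Tfam-KO over WT (horizontal axis), of the 105 tested pathway genes in 7 role lists, with the number tested in brackets; red points were called lower, green points higher and grey points not called, and black bars are list medians. Medians run from -0.73 for the ligands and receptors to 0.10 for RANK signalling.

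Some pathway genes share exonic bases with a gene on the opposite strand, whose reads cannot be told apart in these libraries. This held for 15.1% of the exonic bases of Csf1r (with Hmgxb3), 17.3% of Sqstm1 (with Mrnip), 14.9% of Slc4a2 (with Fastk and an annotated small nuclear RNA), 14.6% of Def6 and 10.7% of Cd9. Rbpj shares up to 1441 bases at 95% identity or more with an annotated pseudogene, so its count is uncertain. The same holds for Ckb, with a copy of up to 1149 bases, and for Dcst1, which overlaps an opposite-strand pseudogene over 24.2% of its exonic bases and has near copies of up to 1270 bases. Among the lower transcription factors counted above, Fosl1 and Jund overlap an opposite-strand gene over 57.2% and 52.6% of their exonic bases.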

How the data were processed

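RNA-seq counts of 6 BV2 libraries were used. Per the labels' protocols, RNA was extracted with TRIzol and libraries were made with a NEBNext Ultra kit, which does not mark strand. The submitters' processing notes name build GRCm39 and the tools featureCounts 2.0.0, SAMtools 1.9, HISAT2 2.1.0 and bcl2fastq 2.17; how multi-mapping reads were treated is not stated there. The deposited count table holds whole-number counts per gene, each row summing to at least 6. The authors' log2 table, from its values, is log2 of library-total-scaled counts plus 8, and was used for 1 alternative.

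The test was the quasi-likelihood F test of edgeR 4.0.16 (R 4.3.3) on the counts, after filterByExpr and TMM scaling and without covariates, with Benjamini-Hochberg adjustment over 13403 genes; 4469 were not tested. SEs were derived from the log2 fold change and its F statistic, and 95% intervals use the test's degrees of freedom. The fit was tested on simulated data. Alternatives used DESeq2 1.42.0, limma 3.58.1, other scalings, no filter, a replicate block and each library left out. Exon lengths, overlaps and near-identical copies (blastn 2.17.0, at least 95% identity over 100 bases) came from GENCODE M21 on another build, so no coordinates of it are given. Promoters came from RefSeq on GRCm38.p6.

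The members and lists were chosen with earlier results of these data known. Genes named were the members, Tfam, from each role list the called genes averaging 1 CPM or more that changed most (at most 4), all that moved the less frequent way where 5 or fewer did, the most abundant marker of each marker list, and the 5 genes likest Ocstamp and 3 likest each other called member (Pearson r of log2 CPM with a prior count of 2). Others, such as Dcst1, Dcst2, Cd44, Cd47, Fos, Mmp9, Rela, Nfkb2, Traf2, Traf3, Runx2 and Adgre1, were named after their values were seen. A gene that the rule takes is not reported here. Replicates of a group differed by more than sampling noise (chi-square per degree of freedom 5.62 to 17.5).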

Additional observations from a re-analysis of the deposited data

How the results depend on the processing

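The 5 members other than Ocstamp kept their direction and their side of the threshold under the 6 settings that kept all libraries, and their 4 lower calls also held without each library in turn. The log2 fold change of Ocstamp ran from -4.23 to -3.89, that of Dcstamp from -0.91 with DESeq2 or a replicate block to -0.81 with library totals or limma on the deposited log2 table, Tnfrsf11a from -0.56 to -0.45, Ctsk from -0.35 to -0.25 and Oscar from -1.47 to -1.23, while Nfatc1 reached 0.15 (adjusted p = 0.227, limma). Leaving out 1 library gave -1.01 to -0.83 for Dcstamp, -0.68 to -0.43 for Tnfrsf11a, -0.40 to -0.27 for Ctsk, -1.60 to -1.35 for Oscar and -0.00082 to 0.13 for Nfatc1, and -4.37 to -4.02 for Ocstamp. The pathway counts were 22 to 25 higher and 31 to 36 lower without 1 library. Over the whole table, higher genes made up 48.2% of calls, and 61.8% with library totals. Same-numbered replicates did not deviate together (correlations of deviations -0.10, -0.11 and 0.04). Differently numbered replicates gave -0.05 to 0.15. With 3 libraries a group these values cannot decide whether the samples were paired, and the labels do not say. With the replicate block 23 pathway genes were higher and 36 lower, and the calls of the 5 members other than Ocstamp were as before. Depth limits the values of Ocstamp (37 to 44 counts) and Oscar (32 to 57 counts) in libraries labelled Tfam-KO.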
